A study of Drosophila melanogaster with 21 samples.

Results

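The comparison described here sets tumours formed by *scrib* mutant clones that overexpress *abrupt* (*scrib−*+*ab*) against discs whose clones overexpress *ab* alone. Its members are 6 of the 21 arrays of the series, chosen by their labels: 3 *scrib−*+*ab* arrays and 3 *ab* arrays. Eye-antennal discs, the larval epithelial sacs that make the adult eye, antenna and head capsule, were taken on day 5 after egg deposition from 3rd instar larvae of a w1118 background. Clones were made with *ey-FLP*, which acts in the eye-antennal disc, and were marked with GFP on an FRT82B chromosome that either carried the *scrib1* allele (*scrib−*+*ab*) or did not (*ab*). In both groups the same *Tub-GAL4* driver expressed *UAS-ab* in the clones. The FRT control discs had FRT82B clones without the mutation and without *UAS-ab*, and their 3 arrays shared the estimate of the spread. The labels record tumours for *scrib−*+*ab* and no tumours for *ab* and the control. Every disc was a mosaic, so each array mixed RNA of clone cells with RNA of the wild-type cells around them, and fewer cells of a type cannot be told apart from less RNA per cell. Samples were prepared in triplicate, but whether these came from separate collections of larvae is not stated, so a p-value here reflects array-to-array spread alone, and some of that spread may be technical. *scrib−* tumours expressing activated Ras (*scrib−*+*RasACT*) or activated Notch (*scrib−*+*NACT*), each with or without a dominant-negative form of the Jun kinase Basket (*bskDN*), share no array with the 6 and were used to read the same genes in other tumours.

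Scribble is a scaffold protein that, with Discs large and Lethal giant larvae, keeps the apical and basal sides of epithelial cells distinct. Cells that lose it are normally removed from the disc through Jun kinase (JNK) signalling, and with a cooperating oncogene they instead overgrow. Abrupt is a BTB-zinc finger transcription factor. In the third instar the disc passes a retinal wave of differentiation, the morphogenetic furrow, while the antennal disc is divided into segments and a pulse of the steroid ecdysone, acting through a cascade of nuclear receptors, readies the tissue for metamorphosis.

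The values are log2 signals per probe set, so that a difference of 1 is a 2-fold difference, and 2.17 is the floor of the table. A gene was called where the limma adjusted p was under 0.05 and the log2 difference over 1, and is represented by its probe set with the highest mean. Per array, 7673 to 7759 probe sets lay at or above 5 log2 in *scrib−*+*ab*, 7774 to 7854 in *ab* and 7519 to 7577 in the control. The main *scrib* probe set stood at 10.87, 11.15 and 10.58 in *scrib−*+*ab* and at 11.37, 11.25 and 11.40 in *ab*, and none of the 5 *scrib* probe sets was called (adjusted p 0.117 to 1.0). No source used here says how *scrib1* alters the transcript, which leaves the genotype unchecked by these levels, and the probe set of *ab* itself carries no name in the table used and was not analysed here. Spiked hybridisation controls averaged 13.94 to 14.34 log2 in *scrib−*+*ab*, 11.75 to 12.56 in *ab* and 11.21 to 11.31 in the control, so the array groups of the comparison did not overlap on them. Poly-A controls averaged 2.22 to 2.27 in *scrib−*+*ab*, 2.20 to 2.21 in *ab* and 7.71 to 7.88 in the control, so control levels below are given as a description. The part of these technical differences in the results was not tested.

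Genes of the ecdysone response, Notch target genes of the *E(spl)* complex and eye and antennal patterning genes were among those lower in the tumours than in *ab* discs. JNK response, migration and basement membrane genes were among those higher. Called genes of the lists of matrix proteases and their inhibitors and of the apical matrix were mostly lower. Of 18769 probe sets 803 were called (4.28%), 342 higher and 461 lower in *scrib−*+*ab*. Of 11982 genes 591 were called (4.93%), 251 higher (2.09%) and 340 lower (2.84%). All 591 had 3 *scrib−*+*ab* arrays that did not overlap the 3 *ab* arrays. Such a gap largely follows from the thresholds of a call, and its share over all genes was not counted, so it adds no evidence. By over 2 log2, 103 genes were higher and 134 lower, and by over 3 log2, 43 and 53. After a further quantile normalization of the arrays 417 probe sets were higher and 379 lower, so the balance of directions depends on the scaling (42.6% higher as deposited, 52.4% after it). Among the 6461 genes whose higher group mean was at least 5 log2, the median difference was -0.10.

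**Figure D1:**
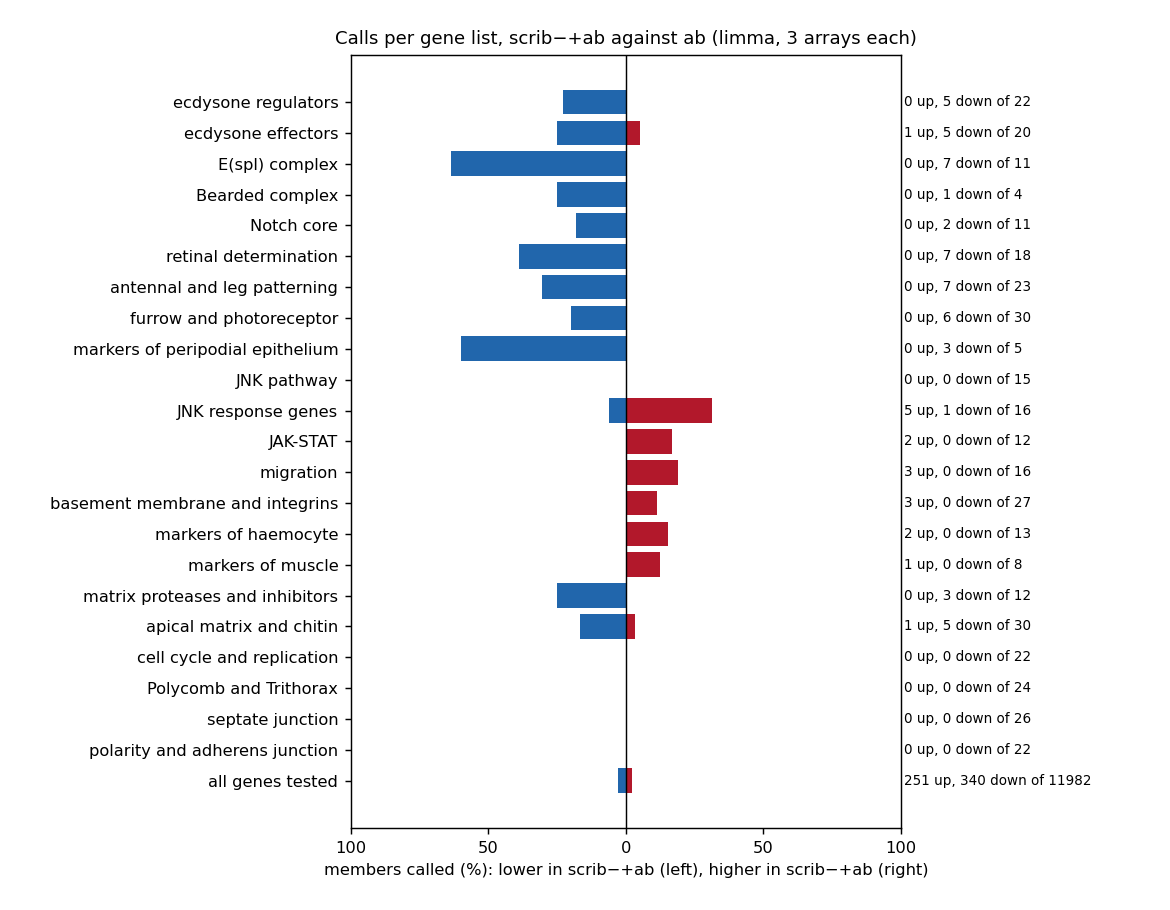
Share of the measured members of each gene list called lower (bars to the left) or higher (bars to the right) in *scrib−*+*ab* than in *ab*, in percent, with the counts beside each bar and all 11982 tested genes in the bottom row. The *E(spl)*, retinal, antennal and photoreceptor lists have bars to the left alone, the JAK-STAT, migration and basement membrane lists to the right alone, and the ecdysone effector and JNK response lists have 1 gene against the longer bar.

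The largest rises began with 3 genes known by CG numbers and the neuropeptide-like and cuticle genes *Nplp2* and *Cpr47Eb*. *CG13215* stood at 8.29, 8.52 and 9.32 in *scrib−*+*ab* and at 2.89, 2.17 and 2.17 in *ab*, a rise of 6.30 (SE 1.09, adjusted p 0.0168). *CG6753* rose by 6.18, with 8.84 to 9.02 in *scrib−*+*ab* and 2.28 to 3.34 in *ab*, and *CG4267* by 5.43. *Cpr47Eb*, a chitin-binding cuticle protein gene, stood at 7.93, 8.81 and 9.01 in *scrib−*+*ab* and at 2.30, 2.60 and 4.60 in *ab* (5.42, SE 0.64, adjusted p 0.00466). *Nplp2*, a haemolymph protein gene, had 10.47, 7.89 and 10.61 in *scrib−*+*ab*, 3.42, 4.61 and 5.53 in *ab*, and 8.95 to 9.77 in the control, so here the *ab* discs were the group that stood apart. Its call (5.14, adjusted p 0.0156) was lost without *ab* replicate 2 (0.0528), and that of *CG13215* without *ab* replicate 2 or 3 or *scrib−*+*ab* replicate 3 (0.0593, 0.0546 and 0.0562). The other genes among the 15 largest rises included *Sp212*, a serine protease (4.32, SE 0.09, the narrowest error of the 15), *aspr* (4.23), *GstD3*, a glutathione transferase (4.17), *Acsf2*, an acyl-CoA synthetase (4.12), and *vis*, a homeobox gene of the TGIF family (4.06). *vis* stood at 6.73, 5.10 and 6.93 in *scrib−*+*ab*, at 2.18, 2.18 and 2.20 in *ab* and at 5.39 to 6.14 in the control.

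The largest falls were led by an ecdysone-inducible gene. *ImpE2* stood at 9.41, 5.68 and 3.47 in *scrib−*+*ab* and at 14.25, 13.88 and 14.18 in *ab*, with 13.49 to 14.65 in the control (-7.92, SE 1.41, adjusted p 0.0185). The *ab* arrays lay close together while the tumour arrays were spread widely, and the call was lost without *ab* replicate 1, 2 or 3 or *scrib−*+*ab* replicate 2 (adjusted p 0.0635, 0.0587, 0.0574 and 0.0585). *CG3823* (-6.36), *CG15905* (-6.26) and *CG1273* (-5.74) followed. *Spn43Aa*, which encodes a serine protease inhibitor of the serpin family, stood at 8.23, 7.15 and 6.41 in *scrib−*+*ab*, against 12.61, 12.52 and 12.63 in *ab* (-5.32, SE 0.46, adjusted p 0.00191). Of the 15 largest falls, 5 belonged to a list described below: *ImpE2*, *Spn43Aa*, *Blimp-1*, *Hr4* and *Hr3*. For *CG4586*, *CG32793* and *Jhbp2*, also among the 15, the call was lost in 5, 7 and 6 of the 9 fits that left out 1 array (adjusted p 0.0509 to 0.0788 in those fits).

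Ecdysone acts through its receptor, a heterodimer of EcR and Ultraspiracle, which switches on early genes and then further nuclear receptors in a timed cascade. Of 22 measured regulators of that cascade 5 were lower in *scrib−*+*ab*, 0 were higher and 17 were not called, with a median of -0.62, against 2.84% lower and a median of 0.00 over all genes. *Blimp-1*, a zinc finger repressor that times prepupal gene expression, stood at 2.87, 2.91 and 2.34 in *scrib−*+*ab* and at 8.19, 7.19 and 8.37 in *ab* (-5.21, SE 0.63, adjusted p 0.00543). *Hr4*, a nuclear receptor that limits early gene activity, stood at 2.65, 2.66 and 2.67 in *scrib−*+*ab* and at 8.14, 7.42 and 7.56 in *ab*. The 3 tumour values of *Hr4* lay within 0.03 of each other, just above the floor, where differences depend on the background correction. *Hr3*, the nuclear receptor that acts between the early genes and *ftz-f1*, stood at 3.66, 2.35 and 2.62 in *scrib−*+*ab* and at 7.96, 6.93 and 7.87 in *ab* (-4.71, SE 0.66, adjusted p 0.00857). In the control *Hr3* had 2.32, 4.13 and 4.40, so that all 3 *ab* arrays were above both other groups. *Eip78C*, another early nuclear receptor, fell to 2.48, 2.17 and 2.56 in *scrib−*+*ab*, against 5.07, 4.30 and 4.70 in *ab* and 6.07 to 7.91 in the control. *svp*, a COUP-family nuclear receptor that also acts in photoreceptors, stood at 7.28, 7.51 and 6.47 in *scrib−*+*ab* and at 8.31, 8.37 and 8.46 in *ab* (-1.29, adjusted p 0.0313). The calls of *Eip78C* and *svp* were lost in 7 and 8 of the 9 fits that left out 1 array, with adjusted p up to 0.106 for *Eip78C* and 0.0911 for *svp*.

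The receptor genes themselves were not called. *EcR* stood at 10.68, 11.01 and 10.34 in *scrib−*+*ab* and at 10.66, 11.05 and 10.82 in *ab* (-0.16, SE 0.21, adjusted p 0.884). *usp* stood at 10.23 to 10.62 in *scrib−*+*ab* and at 10.17 to 10.20 in *ab* (0.29, SE 0.13, adjusted p 0.28). The tumour and *ab* arrays overlapped for *EcR*, and the difference of neither gene reached 1 log2. *br*, the Broad early gene, had an adjusted p of 0.0126 but a difference of -0.85, with 13.69, 13.51 and 13.48 in *scrib−*+*ab* and 14.69, 14.33 and 14.20 in *ab*. A dimmer probe set of *br* was called lower (-1.69, adjusted p 0.0218). *ftz-f1*, the competence factor of the prepupal period, stood at 9.10 to 10.001 in *scrib−*+*ab* and at 8.71, 9.03 and 7.98 in *ab* (1.10, SE 0.41, adjusted p 0.185), while its second probe set was called higher, at 8.10, 8.59 and 8.27 in *scrib−*+*ab* and at 6.16, 6.62 and 6.03 in *ab* (2.05, SE 0.31, adjusted p 0.0107). *Eip93F* ranged over 2.40 to 6.75 in *scrib−*+*ab* and 5.30 to 6.12 in *ab* (adjusted p 0.622).

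Of 20 ecdysone effector and synthesis genes 5 were lower, 1 was higher and 14 were not called, with a median of -0.82. The shares over all genes were 2.84% lower and 2.09% higher. *ImpE3*, an inducible gene of imaginal discs, stood at 9.88, 8.96 and 8.65 in *scrib−*+*ab* and at 13.06, 12.94 and 13.33 in *ab* (-3.95, SE 0.43, adjusted p 0.00354). *ImpE1*, which encodes a membrane protein of disc morphogenesis, stood at 9.99, 9.08 and 9.31 in *scrib−*+*ab* and at 13.30, 12.99 and 13.45 in *ab* (-3.79, SE 0.42, adjusted p 0.00396). For both genes the control arrays lay between the groups (10.83 to 12.09 for *ImpE3*, 11.04 to 12.44 for *ImpE1*). *Sb* (*Stubble*), the transmembrane serine protease needed for disc elongation and eversion, stood at 6.17, 4.28 and 6.07 in *scrib−*+*ab* and at 9.39, 9.27 and 9.70 in *ab* (-3.94, SE 0.65, adjusted p 0.0142). *MsrA*, a methionine sulfoxide reductase first found as an ecdysone-induced protein, fell by 1.08 log2 (adjusted p 0.00548) and dropped under the fold threshold without *scrib−*+*ab* replicate 3 (-0.94). The exception was *Eip63E*, a cyclin-dependent kinase, which rose by 1.16 (SE 0.10, adjusted p 0.00173) to 12.02, 12.32 and 12.32 in *scrib−*+*ab*, against 11.19, 11.01 and 10.995 in *ab*. *ImpL1* had a difference of -3.33 but an adjusted p of 0.084. *sad* and *dib*, cytochrome P450 enzymes of ecdysteroid synthesis, were not called (-1.34 with adjusted p 0.0684, and -1.12 with adjusted p 0.224), with 10.14 to 10.59 for *sad* in *scrib−*+*ab* and 11.12 to 11.98 in *ab*.

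**Figure D2:**
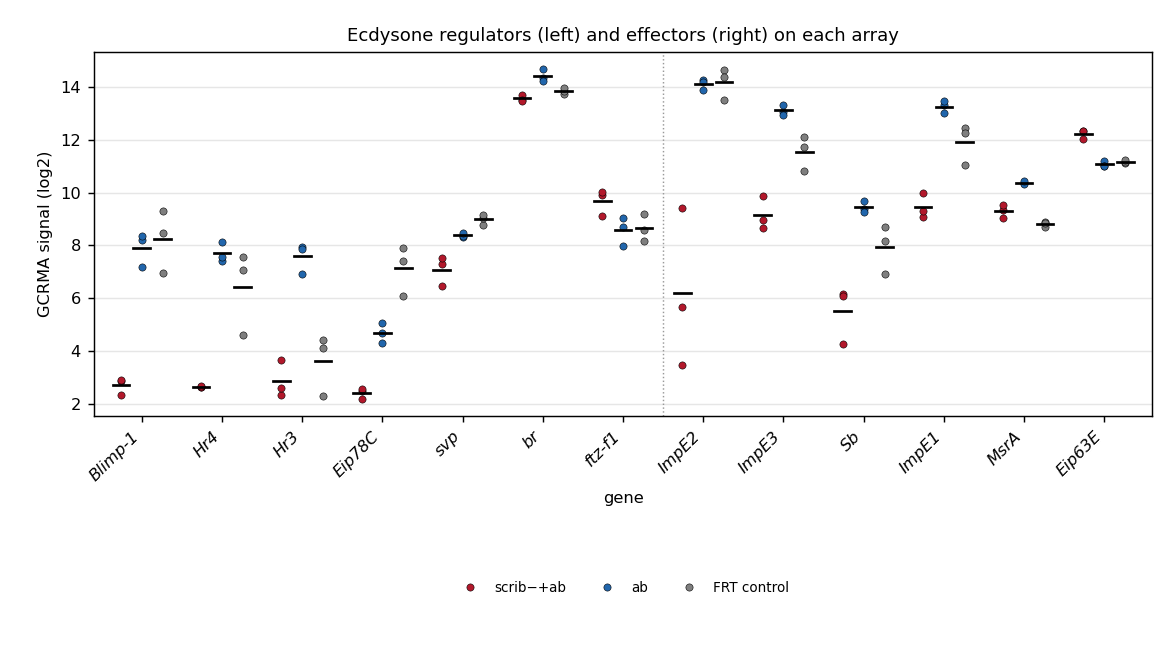
GCRMA signal (log2) of 7 ecdysone regulators (left of the dotted line) and 6 effectors (right) on each array. Points are single arrays of *scrib−*+*ab*, *ab* and the FRT control and black lines are group means. The *scrib−*+*ab* arrays of *Blimp-1*, *Hr4*, *Hr3* and *Eip78C* sit at 2.17 to 3.66, below all *ab* arrays, while *Eip63E* is the gene whose tumour arrays lie above both other groups by more than 0.8.

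Notch signalling at the cell surface releases the intracellular domain of the receptor, which activates the *Enhancer of split* complex: a row of basic helix-loop-helix repressors and small Bearded-family proteins. Of 11 measured genes of this group, with their corepressor and relative *gro* and *hry* included, 7 were lower in *scrib−*+*ab*, 0 higher and 4 not called, with a median of -1.20. The share lower over all genes was 2.84%. *E(spl)m5-HLH* stood at 2.41, 2.68 and 2.86 in *scrib−*+*ab* and at 6.86, 6.58 and 7.13 in *ab* (-4.21, SE 0.38, adjusted p 0.00216). In the control it had 2.33, 3.74 and 2.59, so the *ab* arrays were the high group. *E(spl)malpha-BFM*, a Bearded-family member of the complex, stood at 9.52, 9.78 and 9.49 in *scrib−*+*ab*, at 12.05, 11.80 and 11.60 in *ab* and at 11.59 to 12.41 in the control (-2.22, SE 0.23, adjusted p 0.00304). *E(spl)m7-HLH* stood at 10.04, 10.26 and 9.93 in *scrib−*+*ab* and at 11.64, 11.75 and 11.74 in *ab* (-1.64), and *E(spl)mdelta-HLH* at 9.31, 9.80 and 9.58 in *scrib−*+*ab* and at 11.18, 11.01 and 11.02 in *ab* (-1.51). *E(spl)mbeta-HLH* (-1.20), *E(spl)m4-BFM* (-1.53) and *E(spl)m2-BFM* (-1.19) completed the 7. The call of *E(spl)m4-BFM* was lost without *ab* replicate 2 (adjusted p 0.0513) and that of *E(spl)m2-BFM* in 8 of the 9 fits that left out 1 array (adjusted p 0.0508 to 0.102 in those fits). The 4 not called were *E(spl)m3-HLH* (-0.70, adjusted p 0.034), *E(spl)m6-BFM*, at 2.19 in *scrib−*+*ab* and 2.37 in *ab*, *gro* (-0.33) and *hry* (-0.24).

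Of the 4 measured genes of the separate Bearded complex 1 was lower, *BobA*, at 2.23, 2.33 and 3.06 in *scrib−*+*ab* and at 4.62, 5.11 and 4.39 in *ab* (-2.17, SE 0.27, adjusted p 0.00556), and at 2.23 on every control array. Of 11 core pathway genes 2 were lower, against 2.84% over all genes. *numb*, the cell fate determinant that inhibits Notch, stood at 11.05, 10.80 and 10.74 in *scrib−*+*ab* and at 11.89, 12.14 and 12.08 in *ab* (-1.17, SE 0.11, adjusted p 0.00235). *pen-2*, a subunit of the gamma-secretase that cuts the receptor, stood at 9.39, 9.70 and 9.57 in *scrib−*+*ab* and at 10.99, 10.40 and 11.03 in *ab* (-1.25). The direction of the calls was thus the same for an inhibitor and for a part of the activating machinery. *neur*, the ubiquitin ligase that activates the ligands, had an adjusted p of 0.00787 with a difference of -0.83, and *kuz* and *Psn*, the proteases of receptor cleavage, were not called (-0.65 and -0.45). The ligand genes *Dl* and *Ser* carry no name in the table used and were not analysed here.

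In the eye field a set of nuclear factors led by *eyeless* commits cells to a retinal fate, and proneural genes then select photoreceptors behind the furrow. Of 18 retinal determination and head patterning genes 7 were lower in *scrib−*+*ab*, 0 higher and 11 not called (median -0.86). Over all genes 2.84% were lower. The 7 did not include the central genes of the network. *eya* stood at 11.78, 11.74 and 11.14 in *scrib−*+*ab* and at 12.58, 12.36 and 12.63 in *ab* (-0.97, adjusted p 0.0209), and *dac* at 11.26 to 11.56 in *scrib−*+*ab* and 12.08 to 12.22 in *ab* (-0.75, adjusted p 0.0118), both short of the fold threshold. *so* differed by 0.01, *Optix* by -0.10 and *ey* by 0.35, with adjusted p 0.322 or more. The T-box genes *Doc1*, *Doc2* and *Doc3*, which are paralogs and act in the peripodial and head regions of the disc, were lower by 2.06, 2.06 and 1.36 log2. *Doc1* stood at 6.56, 5.99 and 6.24 in *scrib−*+*ab* and at 8.20, 8.18 and 8.58 in *ab*. *pnr*, a GATA factor of the dorsal head, stood at 6.14, 5.56 and 5.77 in *scrib−*+*ab* and at 7.75, 7.62 and 8.20 in *ab* (-2.03, SE 0.22, adjusted p 0.00352). *danr* and *dan*, pipsqueak-domain genes of eye and antenna specification, had differences of -1.63 and -1.30. *eyg*, a Pax gene of eye growth, stood at 5.38, 5.24 and 3.72 in *scrib−*+*ab* and at 7.02, 7.24 and 6.96 in *ab* (-2.29, adjusted p 0.0239), a call that 5 of the 9 fits without 1 array did not keep (adjusted p 0.0514 to 0.0794).

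Of 30 furrow and photoreceptor genes 6 were lower, 0 higher and 24 not called (median -0.80), against 2.84% lower over all genes. *ato*, the proneural gene of the founder R8 photoreceptor, stood at 8.003, 7.86 and 8.09 in *scrib−*+*ab*, at 9.18, 9.56 and 9.63 in *ab* and at 9.25 to 9.73 in the control (-1.47, SE 0.17, adjusted p 0.00411). *sens*, the zinc finger gene that maintains the R8 fate, stood at 5.68, 4.58 and 4.53 in *scrib−*+*ab* and at 7.78, 7.02 and 7.60 in *ab* (-2.54, SE 0.36, adjusted p 0.00865). *phyl*, an adaptor for degradation of the repressor Tramtrack, stood at 8.14, 8.52 and 8.46 in *scrib−*+*ab* and at 10.06, 9.75 and 9.95 in *ab* (-1.55, SE 0.13). These 3 calls held without each single array. *svp* (above), *sev*, the R7 receptor tyrosine kinase (-1.24), and *CadN*, N-cadherin (-1.02), were the other called genes, and *sev* and *CadN* lost their calls in 7 and 2 of the 9 fits without 1 array (*sev*, adjusted p 0.0514 to 0.0952; *CadN*, a difference of -0.92 in both). *elav*, the general neuronal marker, stood at 9.98, 10.55 and 10.27 in *scrib−*+*ab* and at 11.53, 11.04 and 10.76 in *ab* (-0.85, adjusted p 0.0841), and the morphogen gene *dpp* differed by -0.07.

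The antenna is divided along its length by homeobox and zinc finger genes expressed in rings. Of 23 such genes 7 were lower in *scrib−*+*ab*, 0 higher and 16 not called (median -0.75), against 2.84% lower over all genes. *al*, the homeobox gene of the most distal segment, stood at 7.55, 6.81 and 6.63 in *scrib−*+*ab*, at 10.11, 9.97 and 10.27 in *ab* and at 8.27 to 8.79 in the control (-3.13, SE 0.27, adjusted p 0.00192). *bab2*, a BTB-domain gene of the distal segments, stood at 8.10, 7.76 and 7.28 in *scrib−*+*ab* and at 10.59, 10.48 and 10.59 in *ab* (-2.84, SE 0.26). Its neighbour and paralog *bab1* stood at 6.37 to 7.01 in *scrib−*+*ab* and 7.36 to 7.45 in *ab* and was not called (-0.78, adjusted p 0.13). *ss*, which sets antennal against leg identity, stood at 8.40, 8.24 and 8.45 in *scrib−*+*ab* and at 10.16, 10.24 and 10.14 in *ab* (-1.82, SE 0.15, adjusted p 0.00168). *salm*, a target of *ss* in the antenna, stood at 8.60, 8.98 and 8.47 in *scrib−*+*ab* and at 10.34, 10.36 and 10.18 in *ab* (-1.61). *disco* (-1.03), the POU gene *nub* (-2.04) and *salr* (-1.21) completed the list. The calls of *nub* and *salr* were lost in 6 and 3 of the 9 fits that left out 1 array (adjusted p up to 0.0727 for *nub*, and a difference of -0.97 for *salr* without *scrib−*+*ab* replicate 3). *Dll*, the selector gene of distal appendages, stood at 11.28, 10.99 and 11.74 in *scrib−*+*ab* and at 11.90, 11.86 and 11.44 in *ab*, and these arrays overlapped (-0.40, adjusted p 0.466). Its other 2 probe sets were called lower, the brighter at 9.70, 9.37 and 10.07 in *scrib−*+*ab* and at 10.91, 11.11 and 11.11 in *ab* (-1.33, adjusted p 0.00915) and the dimmer with a difference of -2.74 (adjusted p 0.0398), so the probe sets of *Dll* disagree. Beside these patterning genes, the Hox gene *Scr*, which specifies labial identity, stood at 2.71, 2.78 and 2.69 in *scrib−*+*ab*, at 7.03, 6.14 and 5.72 in *ab* and at 2.71 to 3.29 in the control (-3.57, SE 0.34, adjusted p 0.00241), the only called gene of 6 Hox genes.

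**Figure D3:**
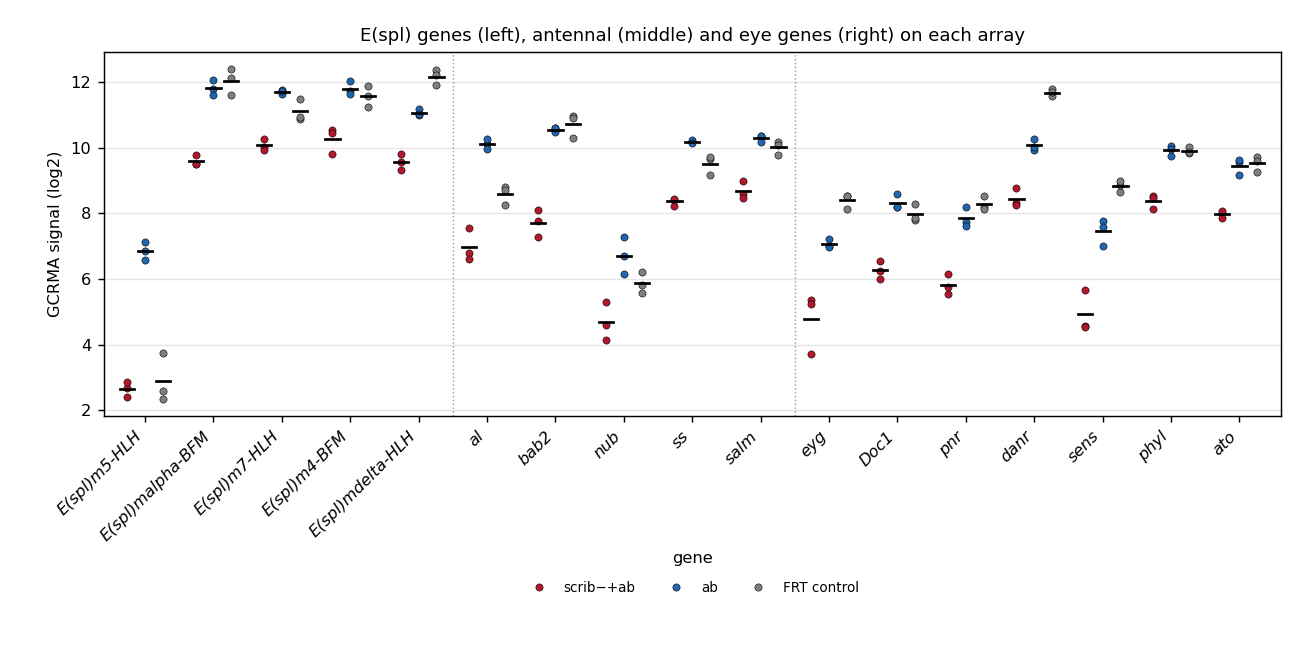
GCRMA signal (log2) of 5 *E(spl)* genes, 5 antennal genes and 7 eye genes on each array, with dotted lines between the sets. Points are single arrays of *scrib−*+*ab*, *ab* and the FRT control and black lines are group means. For all 17 genes the 3 *scrib−*+*ab* arrays lie below the 3 *ab* arrays, with *E(spl)m5-HLH* at 2.41 to 2.86 against 6.58 to 7.13. The 17 were taken from the genes called lower, so this direction is fixed by the choice.

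The JNK cascade runs from the ligand Eiger through the kinases Hemipterous and Basket to the AP-1 factors Jra and Kayak, and its response includes the phosphatase gene *puc*, a negative feedback. Of 15 pathway genes limma called 0 in either direction (5 had an unadjusted p under 0.05), with a median of 0.09. At an adjusted p under 0.05 regardless of size, *bsk* differed by -0.34 and *wgn*, an Eiger receptor, by -0.99. *kay* stood at 12.37, 12.08 and 12.11 in *scrib−*+*ab* and at 11.77, 11.82 and 11.80 in *ab*, a gap between the groups that did not pass the test (0.39, adjusted p 0.455). *puc* stood at 11.0001, 10.88 and 10.79 in *scrib−*+*ab*, at 10.22, 9.98 and 10.24 in *ab* and at 9.76 to 10.63 in the control (0.74, SE 0.23, adjusted p 0.116).

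Of 16 JNK response genes 5 were higher in *scrib−*+*ab*, 1 was lower and 10 were not called, with a median of 0.76, against 2.09% higher over all genes. *Ets21C*, an ETS transcription factor gene of stress responses, stood at 5.63, 4.53 and 4.93 in *scrib−*+*ab*, at 2.18 on each *ab* array and at 5.03, 3.16 and 3.54 in the control (2.86, SE 0.52, adjusted p 0.02). The *ab* arrays lay at the bottom of the scale and the tumour arrays overlapped the control, and the call was lost without any of the 3 *ab* replicates or without *scrib−*+*ab* replicate 3 (adjusted p 0.0568 to 0.0658). *upd1*, a ligand of the JAK-STAT pathway, stood at 12.53, 12.37 and 12.34 in *scrib−*+*ab*, at 9.81, 9.93 and 10.03 in *ab* and at 4.32 to 5.86 in the control (2.49, SE 0.37, adjusted p 0.0102). *Atf3*, a bZIP transcription factor gene, stood at 10.09, 10.13 and 9.72 in *scrib−*+*ab* and at 7.68, 7.80 and 7.36 in *ab* (2.37, SE 0.21). *cher*, the actin crosslinker filamin, stood at 12.16, 12.14 and 12.19 in *scrib−*+*ab* and at 10.21, 10.22 and 10.40 in *ab* (1.89, SE 0.16, adjusted p 0.0018), the smallest spread among the 5 within the tumours. *Pax*, the focal adhesion adaptor paxillin, rose by 1.14 (adjusted p 0.0221) and lost its call without *ab* replicate 2 or 3 (0.063 and 0.0601) or without *scrib−*+*ab* replicate 1, where its difference was 0.94. The member called lower was *mirr*, an Iroquois homeobox gene (-1.07). *Ilp8*, the relaxin-like peptide that delays metamorphosis, stood at 10.62, 10.11 and 11.66 in *scrib−*+*ab* and at 8.69, 9.31 and 9.43 in *ab* without passing the test (1.66, SE 0.86, adjusted p 0.375). Of 12 JAK-STAT genes 2 were higher, *upd1* and *chinmo*, a BTB-zinc finger gene, at 11.83, 11.88 and 12.18 in *scrib−*+*ab* and at 9.82, 10.52 and 10.30 in *ab* (1.74, adjusted p 0.0277), a call lost in 7 of the 9 fits without 1 array (0.0565 to 0.0878). The other 2 probe sets of *chinmo* were also called higher in the main fit (1.75, limma adjusted p 0.0309, and 3.54, adjusted p 0.0119). The receptor gene *dome* and *Stat92E* were not called (0.47 and 0.50).

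Of 16 genes of cell migration and guidance 3 were higher and 0 lower, against 2.09% higher over all genes. The median of the 16 was 0.02, so the rise lay in these 3 genes and not in the list as a whole. *wun2* and *wun* encode lipid phosphate phosphatases that guide migrating cells. *wun2* stood at 10.10, 10.53 and 10.41 in *scrib−*+*ab* and at 6.39, 6.53 and 6.83 in *ab* (3.76, SE 0.18, adjusted p 0.000363), and *wun* at 10.46, 10.12 and 10.54 in *scrib−*+*ab* and at 8.12, 7.54 and 7.94 in *ab* (2.50, SE 0.21). *Pvf1*, a PDGF- and VEGF-like ligand, stood at 8.77, 9.13 and 9.04 in *scrib−*+*ab*, at 6.55, 5.49 and 5.65 in *ab* and at 7.31 to 7.85 in the control, so the control lay between the groups (3.08, SE 0.30, adjusted p 0.00265). Its receptor gene *Pvr* overlapped between the groups (0.04). The ligand *Pvf2* was not called (0.72, adjusted p 0.13).

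Of 27 basement membrane and integrin adhesion genes 3 were higher and 0 lower (median 0.51), against 2.09% higher over all genes. *Tig*, which encodes the integrin ligand tiggrin, stood at 11.70, 12.17 and 11.65 in *scrib−*+*ab*, at 8.67, 8.38 and 8.27 in *ab* and at 6.64 to 8.97 in the control (3.40, SE 0.57, adjusted p 0.0146), and its adjusted p was 0.0524 without *ab* replicate 2. *trol*, the perlecan core protein, stood at 9.62, 9.95 and 10.005 in *scrib−*+*ab* and at 8.62, 8.77 and 8.75 in *ab* (1.15, SE 0.18, adjusted p 0.0112), and *Pax* is the third. Of 7 dimmer probe sets of *trol* 1 was called higher (1.73) and 6 were not called (-0.20 to 0.85). The 2 collagen IV genes were not called: *vkg* stood at 9.62, 7.89 and 9.25 in *scrib−*+*ab* and at 6.95, 7.30 and 8.14 in *ab* (1.45, adjusted p 0.256), and *Col4a1* differed by 0.99. The laminin genes *LanA*, *LanB1* and *LanB2* had differences of -0.31, -0.35 and -0.51, none called. Of 12 matrix proteases and inhibitors 3 were lower, against 2.84% over all genes. They were *Sb* (above), *Np*, another transmembrane serine protease (-2.64), and *Reck*, an inhibitor of matrix metalloproteinases, at 7.45, 7.38 and 6.73 in *scrib−*+*ab* and at 9.23, 9.10 and 9.20 in *ab* (-1.995, adjusted p 0.021). *Np* and *Reck* lost their calls in 7 and 5 of the 9 fits without 1 array (adjusted p 0.0672 to 0.12, and 0.05 to 0.0705). *Mmp2* stood at 8.10, 7.80 and 6.99 in *scrib−*+*ab*, at 8.70, 8.45 and 8.29 in *ab* and at 11.59 on average in the control (-0.85, adjusted p 0.133), and *Mmp1* carries no name in the table used.

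Blood cells attach to disc tumours and make basement membrane, so the markers of other cell types were read beside these genes. The 13 haemocyte markers summed to 14.50 to 14.75 log2 in *scrib−*+*ab*, 13.21 to 13.38 in *ab* and 12.17 to 12.62 in the control, and 2 of 13 were higher. *NimC1*, a phagocytosis receptor, stood at 7.86, 7.57 and 7.41 in *scrib−*+*ab*, at 6.02, 6.34 and 6.62 in *ab* and at 2.20 to 2.23 in the control (1.28, SE 0.17, adjusted p 0.00761). *vir-1* stood at 13.38, 13.56 and 13.43 in *scrib−*+*ab* and at 11.68, 11.03 and 10.68 in *ab* (2.33), with an adjusted p of 0.054 without *ab* replicate 2. The sum is of linear signals, so *vir-1* alone makes a large part of it and of its rise. *PPO1* and *PPO2*, prophenoloxidases of crystal cells, had differences of 3.11 and 2.75 that did not pass (adjusted p 0.107 and 0.0986), while the plasmatocyte marker *Hml* overlapped between the groups (0.37) and *eater* too (-0.30). No haemocyte marker had a mean under 3 log2 in *scrib−*+*ab* or *ab*. The 8 muscle markers summed to 12.08 to 12.35 log2 in *scrib−*+*ab*, 11.29 to 12.11 in *ab* and 9.91 to 11.22 in the control, and 1 was higher, *Mlc2*, a myosin light chain gene, at 7.66, 7.53 and 8.12 in *scrib−*+*ab* and at 4.67, 5.70 and 5.93 in *ab*, a call lost in 6 of the 9 fits without 1 array (adjusted p 0.0635 to 0.0894). The part of haemocytes and muscle in the rises of *Tig*, *trol*, *Pax* and the other genes above was not tested.

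**Figure D4:**
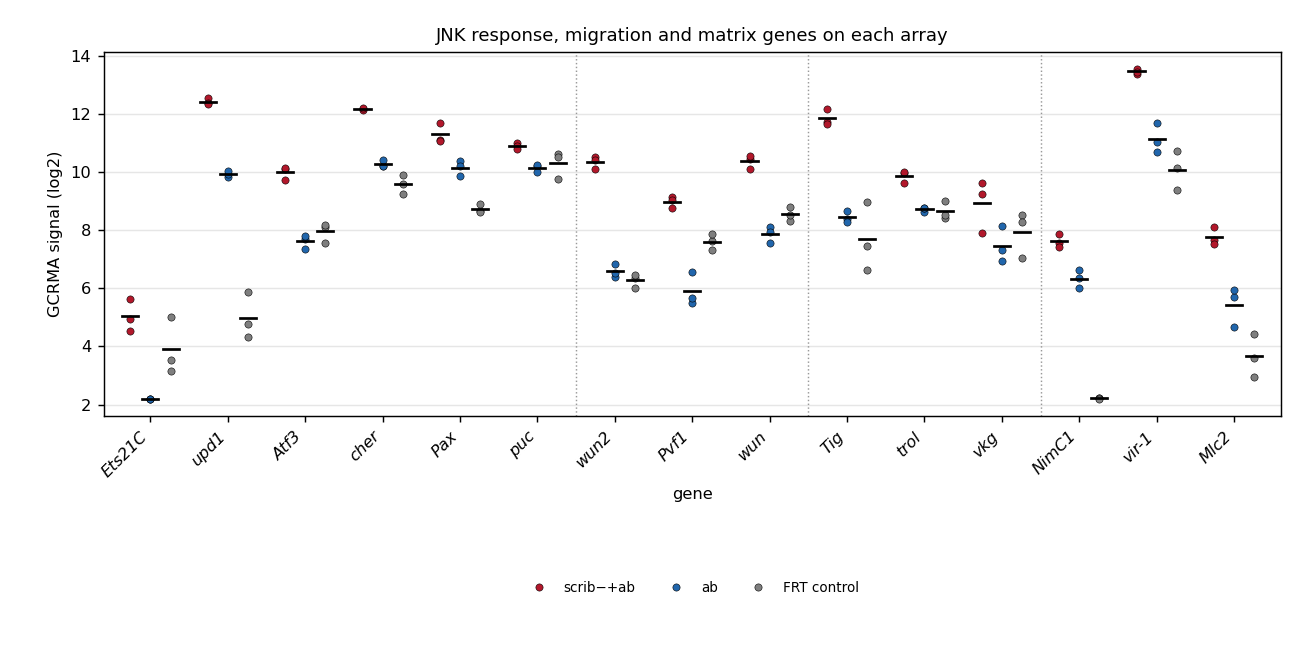
GCRMA signal (log2) of JNK response genes (*Ets21C* to *puc*), migration genes (*wun2* to *wun*), matrix genes (*Tig* to *vkg*) and haemocyte and muscle markers (*NimC1* to *Mlc2*) on each array, with dotted lines between the sets. Points are single arrays of *scrib−*+*ab*, *ab* and the FRT control and black lines are group means. The *scrib−*+*ab* arrays overlap the *ab* arrays for *vkg* alone.

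Of the other marker lists, the 9 eye-antennal disc markers summed to 13.77 to 13.99 log2 in *scrib−*+*ab*, 14.40 to 14.51 in *ab* and 14.90 to 15.01 in the control. These markers, such as *eya*, *dac*, *Dll* and *ato*, are themselves patterning genes of the lists above. Their sum is therefore no separate measure of the amount of disc tissue. Only *ato* of the 9 was called. The 12 brain and neuroblast markers overlapped between *scrib−*+*ab* (12.09 to 12.20) and *ab* (11.91 to 12.32), although *insc*, which orients neuroblast division, stood at 11.11, 10.75 and 11.08 in *scrib−*+*ab* and at 8.04, 7.56 and 7.98 in *ab* (3.12, SE 0.32, adjusted p 0.00298). The neuroblast genes *ase*, *wor* and *dpn* were not called (-1.24, 0.10 and -1.03). Fat body markers summed to 11.53 to 11.81 in *scrib−*+*ab* and 10.08 to 10.85 in *ab*, nearly all of it the signal of 1 member, *FASN1*, a fatty acid synthase gene, at 11.50 to 11.78 in *scrib−*+*ab* and 9.96 to 10.73 in *ab* (1.40). The other 4 were not called and had differences below 0, among them *Fbp1* (-1.54) and *Fbp2* (-0.79), and the median of the 5 was -0.18. The 5 peripodial markers summed to 10.43 to 10.72 in *scrib−*+*ab* and 10.60 to 10.87 in *ab*, with 3 lower and a median of -1.36. The 3 are *Doc1*, *Doc2* and *Doc3*, which are also 3 of the 7 genes called in the retinal list, while *odd* differed by 0.85 (adjusted p 0.00912). Of 6 glial, 5 tracheal and 5 sex composition markers limma called 0 (3, 3 and 1 had an unadjusted p under 0.05). Of the 5 sex composition markers 3 had a mean under 3 log2 in each group. Among the 5 tracheal markers it was 3 in *scrib−*+*ab* and 2 in *ab*, so the lack of calls in these 2 lists says little. The 7 salivary gland markers spread widely within both groups, over 5.71 to 9.57 in *scrib−*+*ab* and 7.83 to 10.53 in *ab*, with 1 of 7 lower, *eyg*, and a median of -1.68. The glue gene *Sgs3* stood at 2.58 to 2.63 in *scrib−*+*ab* and 4.60 to 7.84 in *ab*. The part of these tissues in the called genes was not tested.

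The apical extracellular matrix coats the disc and shapes hairs and cuticle. Of 30 genes in a list of it 5 were lower, 1 was higher and 24 were not called (median -0.01). The list also holds genes that are not parts of this matrix, such as *f* and *trn*. *f*, which bundles actin in bristles, stood at 4.59, 3.37 and 3.99 in *scrib−*+*ab*, at 7.01, 6.88 and 6.85 in *ab* and at 2.37 to 2.70 in the control (-2.93, SE 0.29). The zona pellucida-domain genes *dy*, *neo* and *tyn* had differences of -2.41, -1.70 and -1.68 (adjusted p 0.00182, 0.0148 and 0.00615), and *trn*, a leucine-rich repeat gene of compartment borders, of -1.04, which was -0.90 without *ab* or *scrib−*+*ab* replicate 3. The gene called higher was *obst-E*, a chitin-binding protein that shapes the larval cuticle, at 8.63, 9.03 and 8.64 in *scrib−*+*ab* and at 4.64, 4.86 and 5.19 in *ab* (3.87, SE 0.31, adjusted p 0.00157). Of 85 cuticle protein genes 2 were higher and 5 lower, against 2.09% higher and 2.84% lower over all genes.

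Of 22 cell cycle and replication genes, 24 Polycomb and Trithorax genes, 26 septate junction genes and 22 polarity and adherens junction genes, limma called 0 in either direction. In these lists 7, 9, 7 and 11 genes had an unadjusted p under 0.05. *Pc* differed by 0.50 (adjusted p 0.00631) with 10.26 to 10.40 in *scrib−*+*ab* and 9.79 to 9.86 in *ab*. *PCNA*, the replication clamp, stood at 12.41 to 12.51 in *scrib−*+*ab* and 12.60 to 12.84 in *ab* (-0.28, adjusted p 0.0708). Of the partners of Scribble, *dlg1* differed by 0.29 (adjusted p 0.698) and *l(2)gl* by 0.34 (adjusted p 0.147), and the polarity genes *crb*, *baz* and *aPKC* by -0.15, 0.01 and -0.55. Of 19 Hippo pathway and growth genes, whose output is read by the coactivator Yorkie, 1 was higher, against 2.09% over all genes. It was *kibra*, an upstream component and Yorkie target, at 9.79, 8.98 and 9.45 in *scrib−*+*ab*, at 7.46, 7.82 and 7.28 in *ab* and at 6.74 to 6.96 in the control (1.89, SE 0.23, adjusted p 0.00549). The Yorkie targets *ex* and *fj* overlapped between the groups (0.00 and 0.10). *hpo* and *yki* differed by -0.93 (adjusted p 0.0129) and -0.32 (adjusted p 0.0287). Of 5 housekeeping checks limma called 0 (3 had an unadjusted p under 0.05), and all had a difference below 0: *RpL32* (-0.05), *eIF4A* (-0.07), *betaTub56D* (-0.46, adjusted p 0.0063), *Gapdh1* (-0.50, adjusted p 0.0399) and *Tbp* (-0.62, adjusted p 0.0453).

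The Ras and Notch tumours carry the same *scrib* background, and in them JNK signalling was on or was blocked by *bskDN*. With JNK active rather than blocked, 272 genes were higher in *scrib−*+*RasACT* (2.27%) and 354 lower (2.95%), and 582 were higher in *scrib−*+*NACT* (4.86%) and 222 lower (1.85%). Of the 251 genes higher in *scrib−*+*ab* than in *ab*, 120 were also higher with active JNK in *scrib−*+*RasACT*, which is 47.8% of the 251 and 44.1% of the 272. In *scrib−*+*NACT* 138 were, which is 55% of the 251 and 23.7% of the 582. In both tumours 95 were (37.8% of the 251), in either 163 (64.9%), and the opposite direction was called for 3 and 2 genes. Of all 11982 genes 176 were higher with active JNK in both tumours and 678 in either. Of the 340 genes lower in *scrib−*+*ab*, 101 were lower with active JNK in *scrib−*+*RasACT* (29.7% of the 340, 28.5% of the 354) and 80 in *scrib−*+*NACT* (23.5% of the 340, 36% of the 222), 38 in both (11.2%). Over all 11982 genes 67 were lower with active JNK in both tumours. In *scrib−*+*NACT* 32 of the 340 (9.41%) went the other way. No array with *bskDN* was made for *scrib−*+*ab*, so whether these genes depend on JNK in the *ab* tumours was not measured.

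Of the 95 genes, the 12 that moved most in all 3 comparisons were *CG13215*, *Cpr47Eb*, *aspr*, *Rcd2*, *Tig*, *CG10559*, *CG15279*, *CG7059*, *wun2*, *CG14277*, *CG4267* and *CG15745*. Of these, the calls of *CG13215*, *Tig* and *CG15279* against *ab* were lost in 3, 1 and 6 of the 9 fits without 1 array. *Tig* averaged 11.96 ± 0.46 in *scrib−*+*RasACT* and 7.29 ± 0.11 with *bskDN*, and 10.98 ± 0.10 in *scrib−*+*NACT* and 6.20 ± 0.13 with *bskDN* (SD, n = 3 each). *Rcd2* stood at 10.72, 10.69 and 10.56 in *scrib−*+*ab* and at 7.21, 6.99 and 7.32 in *ab*, and with active JNK it differed by 3.83 (SE 0.37) in *scrib−*+*RasACT* and 4.44 (SE 0.37) in *scrib−*+*NACT*. *aspr* stood at 8.96, 9.32 and 9.08 in *scrib−*+*ab* and at 4.89, 4.96 and 4.82 in *ab* (4.23, SE 0.15), and its JNK effects were 4.26 and 4.001. These genes were chosen for being called higher in each comparison, so their shared direction is fixed by the choice. Other members of the 95 were *Ets21C*, with JNK effects of 4.67 in *scrib−*+*RasACT* and 4.04 in *scrib−*+*NACT* (adjusted p 3.24e-06 and 5.18e-06), *Pvf1* (2.76 and 4.06), *Tsf1*, the iron carrier transferrin (2.94 and 5.26), whose call in *scrib−*+*ab* was lost without *ab* replicate 2 (adjusted p 0.0511), and *Esyt2*, an extended synaptotagmin of membrane contact sites (2.47 and 5.54). *Mlc2* and *vir-1* were among the 95 too, with JNK effects of 2.42 and 3.49, and 3.66 and 3.28.

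**Figure D5:**
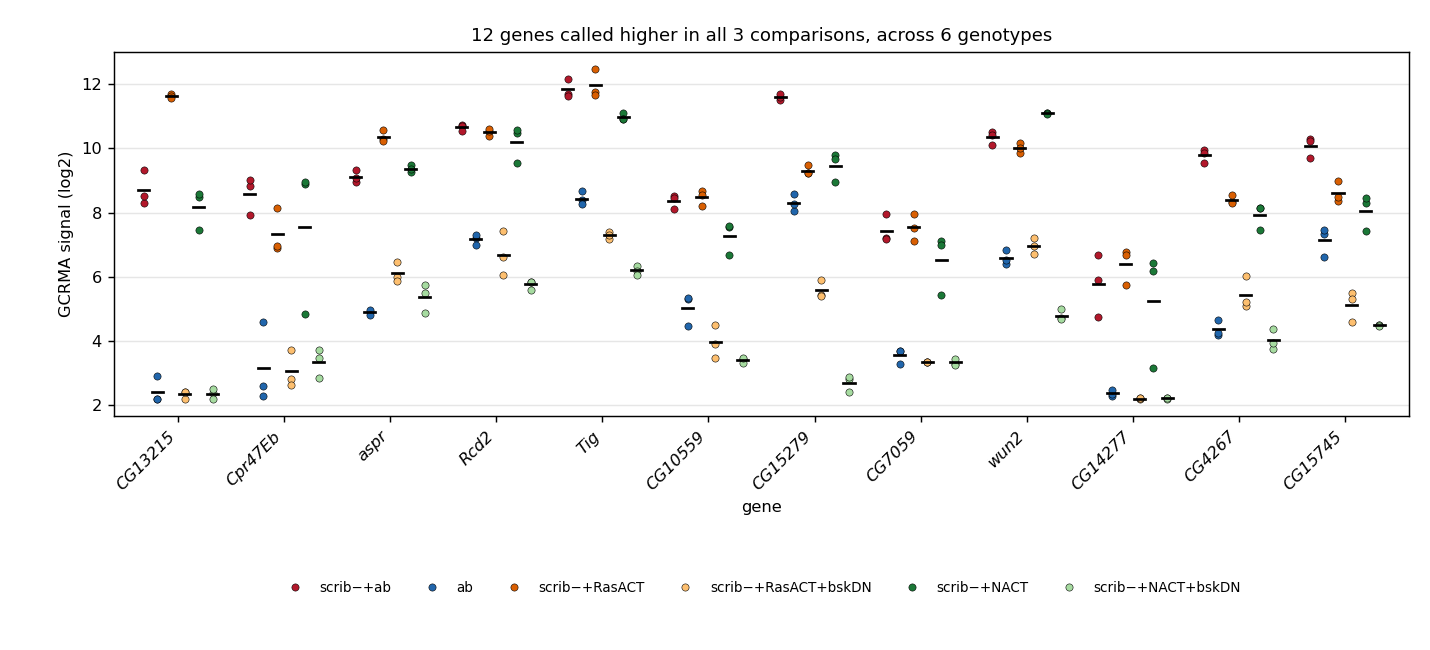
GCRMA signal (log2) of the 12 genes with the largest smallest difference among those called higher in *scrib−*+*ab* against *ab* and with active JNK in both other tumours. Points are single arrays of 6 genotypes, each tumour left of its counterpart, and black lines are group means. *Tig* lies at 11.65 to 12.17 in *scrib−*+*ab* and 8.27 to 8.67 in *ab*, and the pairs with and without *bskDN* are split in the same way.

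The genes described above did not all follow that pattern. *upd1* had a JNK effect of 2.93 (SE 0.19) in *scrib−*+*RasACT*, but of 0.84 in *scrib−*+*NACT*, where it stood at 8.89 ± 0.21 with active JNK and 8.04 ± 0.07 with *bskDN* (SD, n = 3 each) and was not called. *Atf3* had the reverse pattern, 0.04 in *scrib−*+*RasACT* and 2.72 (SE 0.29) in *scrib−*+*NACT*. Among the ecdysone genes *Eip78C* was lower with active JNK in both tumours (-2.77 and -3.53), as were *Sb* (-1.86 and -3.41) and *Hr4* (-1.08 and -4.06). *Blimp-1*, *ImpE1*, *ImpE2* and *ImpE3* were called lower with active JNK in *scrib−*+*NACT* (-4.77, -4.65, -7.75 and -3.36) and not in *scrib−*+*RasACT* (-1.54, -3.04, -1.04 and -1.83, adjusted p 0.0509 or more). By the limma interaction test given below, *Blimp-1* differed between the tumours, while *ImpE1*, *ImpE2* and *ImpE3* were not called. With active JNK in *scrib−*+*NACT*, *ImpE2* stood at 11.16, 2.17 and 2.17, against 12.88 to 12.95 with *bskDN* (SE 2.10). *Hr3* stood at 2.17 to 2.29 on average in all 4 of those groups, so no JNK effect could be seen. Of the *E(spl)* group 1 of 11 was lower with active JNK in *scrib−*+*RasACT* and 2 in *scrib−*+*NACT*, where 1 was higher. Of the 30 furrow and photoreceptor genes 12 were lower with active JNK in *scrib−*+*RasACT* and 0 in *scrib−*+*NACT*, where 8 were higher. Over all genes 2.95% were lower in *scrib−*+*RasACT*, and 1.85% were lower and 4.86% higher in *scrib−*+*NACT*. The *E(spl)* calls are too few to be read against these shares.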

How the data were processed

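RNA of eye-antennal discs was measured on GeneChip Drosophila 2.0 arrays. The authors deposited log2 values, 1 for each probe set, computed with GCRMA (a sequence-based background, quantile scaling and a summary over probes), whose version is not given in the sources used here. Arrays carry no read depth, so precision depends on how many arrays each group has. Of 18952 probe sets 183 AFFX controls were left out and 18769 were tested without a filter. Names came from the platform annotation and RefSeq: 13647 probe sets had 1 symbol, 402 several and 4720 none, giving 11982 genes.

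Group means of 9 arrays (*scrib−*+*ab*, *ab*, control), and of 12 arrays for the JNK effects, were estimated in R 4.3.3 by limma 3.58.1 (lmFit, eBayes), with Benjamini-Hochberg adjustment over all probe sets. The thresholds were an adjusted p under 0.05 and an absolute log2 difference over 1, after the study's methods. The script was tested on simulated data. Each gene is represented by its brightest probe set on average across all 21 arrays. Lists are given by counts and medians, with no set test. Summed marker levels are log2 of summed linear signals. Named genes were *scrib*, the 15 largest rises and 15 largest falls (arrays not overlapping, higher group mean at least 6), called members of each list (all in the ecdysone, *E(spl)*, Bearded, JNK and matrix lists, the 6 largest in others), members that the study names, have a defining role or have the highest level, the 12 genes with the largest smallest difference in all 3 comparisons, and checks. Outside that rule *disco*, *dan*, *Pvf2*, *wgn*, *gro*, *E(spl)m3-HLH* and *E(spl)m6-BFM* were named after their values were seen. Genes, lists and comparison were chosen with earlier results of these data known, and the study named several members from these same arrays, so their counts are no independent evidence. Alternatives were the arrays in the fit, a filter at 5 log2, scaling, variance model, array weights, replicate block, treat, ranking, probe set averaging and leaving out each array.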

Additional observations from a re-analysis of the deposited data

Results flagged for a closer look

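The JNK effect, the difference between active JNK and *bskDN*, differed between the Ras and Notch tumours, by a limma interaction test, for 10 of the 28 genes named or plotted with their effects in both tumours, and for 83 of all 273 named genes. The share over all genes was not counted, and some of these genes were chosen by their JNK effects. These counts therefore do not set the named genes apart from others. The interaction is given as the effect in *scrib−*+*RasACT* minus that in *scrib−*+*NACT*. It was 3.48 for *CG13215* (adjusted p 0.000977), -3.04 for *CG15279* (0.00119), -3.24 for *wun2* (5.32e-05) and 3.23 for *Blimp-1* (0.0214). It was also 2.98 for *Hr4* (0.00261), 2.09 for *upd1* (0.0024), -2.68 for *Atf3* (0.00496), -3.06 for *Esyt2* (0.00121), -2.33 for *Tsf1* (0.0299) and -1.30 for *Pvf1* (0.0423). *wun2* stood at 10.02 ± 0.17 with active JNK and 6.96 ± 0.26 with *bskDN* in *scrib−*+*RasACT*, and at 11.09 ± 0.03 and 4.79 ± 0.17 in *scrib−*+*NACT* (SD, n = 3 each). *Blimp-1* stood at 4.04 ± 0.14 with active JNK and 5.58 ± 1.09 with *bskDN* in *scrib−*+*RasACT*, and at 3.55 ± 0.49 and 8.32 ± 0.09 in *scrib−*+*NACT* (SD, n = 3 each). Outside the gene probe sets, the hybridisation controls averaged 2.90 log2 more on the *scrib−*+*ab* arrays than on the control arrays, with means of 14.18 in *scrib−*+*ab*, 12.20 in *ab* and 11.28 in the control.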

How the results depend on the processing

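With 803 probe sets called (342 higher, 461 lower) as the main count, 6 arrays alone gave 461 (212 and 249), eBayes with trend and robust 250 (108 and 142), array weights 467 (204 and 263), a replicate block 477 (212 and 265) and treat 129 (58 and 71). The deviations of same-numbered *scrib−*+*ab* and *ab* arrays correlated by 0.103, 0.065 and -0.015, and those of differently numbered arrays by -0.189 to 0.157. With 3 arrays per group these values cannot settle whether same-numbered arrays were handled together, and the labels do not say. Leaving out 1 array gave 608 to 822 (262 to 366 higher, 344 to 456 lower). The JNK effect in *scrib−*+*RasACT* counted 792, 424 with 6 arrays alone, 430 with a replicate block and 652 to 974 without 1 array. In *scrib−*+*NACT* it counted 1008, 538 with a replicate block and 861 to 1184 without 1 array.

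Members lower of the *E(spl)* group (7) were 4 with 6 arrays alone, with trend and robust and with array weights, 1 with treat and 5 to 7 without 1 array. Antennal genes lower (7) were 4 with 6 arrays alone and with trend and robust, 2 with treat and 4 to 8 without 1 array (4 without *ab* replicate 2). Retinal genes lower (7) were 4 with trend and robust, 0 with treat and 6 to 8 without 1 array. Furrow and photoreceptor genes lower (6) were 3 with 6 arrays alone and array weights, 2 with trend and robust, 0 with treat and 3 to 7 without 1 array (3 without *ab* replicate 1 or *scrib−*+*ab* replicate 3). Ecdysone regulators lower (5) were 3 with trend and robust, 0 with array weights, 1 with a replicate block and with treat, and 3 to 5 without 1 array (3 without *ab* replicate 1 or 3, control replicate 3 or *scrib−*+*ab* replicate 3). Ecdysone effectors lower (5) were 8 with the filter, 9 by ranking alone, 2 with trend and robust and with treat, 3 with a replicate block and 4 to 7 without 1 array. JNK response genes higher (5) were 3 with trend and robust, 2 with array weights, 1 with treat and 3 to 5 without 1 array (3 without *ab* replicate 2 or 3). Basement membrane and integrin genes higher (3) were 5 with all 21 arrays, the filter, quantile normalization and ranking alone, 0 with trend and robust, array weights and treat, 1 with a replicate block and 1 to 4 without 1 array (1 without *ab* replicate 2).

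None of the 149 named and called genes changed direction under these alternatives, while 22 of the 124 named genes that were not called, such as *EcR*, did. Of 149 named and called genes 104 kept the call in all 9 fits without 1 array, 103 with 6 arrays alone, 148 with all 21, 142 with the filter, 141 with quantile normalization, 145 with median centring, 77 with trend and robust, 96 with array weights, 102 with the replicate block and 45 with treat. The causes of the lost calls were not tested. Signals near the floor of 2.17 have no firm lower bound, and differences against them depend on the background correction.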

Other observations

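Families outside the lists described so far held calls in both directions. Over all genes 2.09% were higher and 2.84% lower. No set test was run, so the counts below are a description of the families. Of 83 cytochrome P450 genes, enzymes of hormone and xenobiotic metabolism, 7 were higher in *scrib−*+*ab* than in *ab* and 3 lower. *Cyp6d2* stood at 7.88, 8.25 and 7.91 in *scrib−*+*ab* and at 5.00, 5.34 and 5.19 in *ab* (2.84, SE 0.20, limma adjusted p 0.00104), and *Cyp28a5* at 4.84, 5.07 and 6.30 in *scrib−*+*ab* and at 2.17, 2.24 and 2.24 in *ab*. Of 34 glutathione transferases 3 were higher and 2 lower. *GstD3* stood at 7.72, 8.38 and 8.22 in *scrib−*+*ab* and at 3.54, 4.11 and 4.15 in *ab*, and *GstZ2* at 3.87, 5.05 and 4.15 in *scrib−*+*ab* and at 6.75, 6.55 and 6.30 in *ab*. Of 27 serpins, inhibitors of serine proteases, 2 were higher, *Spn42Dc* (3.97) and *Spn42De* (2.08), and 2 lower, *Spn43Aa* (-5.32) and *Spn100A* (-3.30). The call of *Spn100A* was lost in 7 of the 9 fits without 1 array (adjusted p 0.0524 to 0.13). *nec*, a serpin that restrains Toll activation, stood at 7.03, 6.95 and 6.64 in *scrib−*+*ab* and at 2.71, 3.49 and 4.91 in *ab* (3.17, and adjusted p 0.0526 without *ab* replicate 2), while *SPE*, the protease that activates the Toll ligand Spätzle, stood at 2.18 on each *scrib−*+*ab* and control array and at 5.28, 4.55 and 5.91 in *ab* (-3.06, SE 0.31, adjusted p 0.00288).

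The small heat shock protein gene *Hsp27*, which is inducible by ecdysone, stood at 12.81, 11.93 and 11.56 in *scrib−*+*ab*, at 14.97, 14.86 and 14.81 in *ab* and at 14.94 to 15.28 in the control (-2.78, SE 0.31, adjusted p 0.00381), and *stv*, a co-chaperone of the BAG family, at 10.32, 10.14 and 9.85 in *scrib−*+*ab* and at 8.54, 8.53 and 8.64 in *ab* (1.54). *REPTOR*, a transcription factor gene downstream of the TOR kinase, rose by 1.65 to 6.40, 6.83 and 7.18 in *scrib−*+*ab*, against 4.76, 5.38 and 5.32 in *ab*. Of 51 genes of the Dpr, DIP, Beat and Side families of cell surface proteins 3 were higher, *dpr17* (3.06), *dpr16* (1.82) and *DIP-alpha* (1.14), and 2 lower, *dpr19* (-2.76) and *beat-IIIc* (-1.71). The shares over all genes were 2.09% higher and 2.84% lower. *DIP-alpha* stood at 9.11 to 9.61 in *scrib−*+*ab*, 7.93 to 8.45 in *ab* and 2.42 to 2.61 in the control, and lost its call without *scrib−*+*ab* replicate 2 (a difference of 0.998). *dpr17* lost its call without *ab* replicate 1 or 2 (adjusted p 0.0534 and 0.0529). *jeb*, the ligand of the receptor kinase Alk, stood at 2.46, 3.14 and 2.21 in *scrib−*+*ab* and at 5.73, 5.45 and 5.20 in *ab* (-2.86, SE 0.36).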
